A study of Mus musculus with 9 samples.

Results

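The genes described here are 40 nucleolar ribosome biogenesis genes, picked by symbol from a fixed list and found in a table of 16876 mouse genes. They encode subunits of RNA polymerase I, proteins of the small nucleolar ribonucleoproteins, assembly factors of both ribosomal subunits, and abundant nucleolar proteins with their regulators. The list was chosen with earlier results of these data known. Its shares set beside those of all genes are therefore descriptions and not independent support. All 40 were in the table and all 40 passed the filter on low counts, which kept 12212 genes. Each had between 156 and 22626 expected counts in every library, so none was admitted through a single group. Expected counts are estimated reads per gene, and levels below are CPM, which are counts scaled to a common library size.

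The RNA came from natural killer (NK) cells, which are lymphocytes that kill infected and transformed cells, grown from femoral bone marrow of C57BL/6 mice with IL-7, Flt3L, SCF and IL-15 and then with IL-15 and IL-2. SIS3_TGFb cells were kept with 10 µM SIS3, a Smad3 inhibitor, for 3 h and then given TGF-β1 at 5 ng/mL for 3 h (n = 3 libraries). TGFb cells received the same dose of TGF-β1 for the same 3 h without SIS3 (n = 3), and Ctrl cells received neither (n = 3). Titles of the first group name SIS3 only, whereas its treatment text gives both agents. SIS3 was not used without TGF-β1, and the sources used here give no solvent control and no age or sex of the mice. TGF-β dampens the killing and growth of NK cells, and Smad3 is a transcription factor that its receptor activates. Whether replicates are separate mice or cultures is not stated, and p-values then reflect the spread between libraries, which may be technical.

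Ribosomes are built mainly in the nucleolus. RNA polymerase I transcribes a long precursor that is cut into mature ribosomal RNAs, while small nucleolar RNAs guide chemical changes to it: box C/D particles direct methylation and box H/ACA particles direct pseudouridine formation. Large assemblies of other proteins fold, cut and pack the RNA with ribosomal proteins into the small and large subunits. In lymphocytes the pathway is known to be driven by the transcription factor MYC during growth and division.

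Promoter stretches of 11 genes are shown first, because the comparisons below turn on several of these genes and because MYC binds the E-box CACGTG. Of the 40 genes, 35 matched the RefSeq promoter table (GRCm38.p6), which holds 300 bases a gene, 250 before and 50 after the start site. The E-box was found in 7 of the 35 (20%), in 11.8% of the promoters of all tested genes and in 8.09% of the whole table; it reads the same on both strands. These 7 windows of 30 bases are in the direction of transcription, with the E-box in capitals.
Nop2, chr6:125131811-125131840, plus strand: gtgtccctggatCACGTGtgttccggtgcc
Utp4, chr8:106893643-106893672, plus strand: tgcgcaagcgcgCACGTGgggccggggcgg
Utp20, chr10:88826765-88826794, minus strand: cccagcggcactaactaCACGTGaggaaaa
Pes1, chr11:3963965-3963994, plus strand: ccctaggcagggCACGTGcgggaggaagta
Mybbp1a, chr11:72441347-72441376, plus strand: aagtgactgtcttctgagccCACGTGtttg
Tsr1, chr11:74898092-74898121, plus strand: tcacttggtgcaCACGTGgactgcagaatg
Wdr43, chr17:71616220-71616249, plus strand: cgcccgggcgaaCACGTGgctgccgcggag
The Nop2 E-box begins 60 bases before the start site, and the other 6 begin between 3 and 41 bases after it. The start site used for Wdr43 lies downstream of the first base of its annotated gene span. A match is a description of letters and not of binding. Dkc1, Ppan, Nop58 and Noc4l, whose stretches follow, are not among these 7 genes.

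The other 4 stretches are the 100 bases before the start sites of Dkc1, Ppan, Nop58 and Noc4l, genes with the largest changes of their role groups below. Start sites are those of the promoter table. For Nop58 this site lies inside the gene span given below, so the last part of its stretch overlaps that span. Capitals mark TATAAA and TGACGT, read on both strands, where overlapping matches run together.
Dkc1, chrX:75095754-75095853, plus strand: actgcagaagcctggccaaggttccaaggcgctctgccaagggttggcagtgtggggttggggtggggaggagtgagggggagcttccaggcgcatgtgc
Ppan, chr9:20888075-20888174, plus strand: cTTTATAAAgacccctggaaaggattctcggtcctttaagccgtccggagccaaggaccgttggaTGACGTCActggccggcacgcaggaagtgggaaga
Nop58, chr1:59684906-59685005, plus strand: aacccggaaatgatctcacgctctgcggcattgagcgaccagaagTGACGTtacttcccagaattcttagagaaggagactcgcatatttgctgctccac
Noc4l, chr5:110653383-110653482, minus strand: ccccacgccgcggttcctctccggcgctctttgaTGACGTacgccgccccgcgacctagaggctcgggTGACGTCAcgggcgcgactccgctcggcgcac
TGACGT, added after the sequences were seen, was in 7 of 35 gene promoters (20%) against 13.6% of tested genes. Noc4l, which rose, and Ppan, which fell, both hold it. The ETS core CCGGAAG was in 13 of 35 (37.1%) against 20.8% of tested genes, and TATAAA in 3 of 35 (8.57%) against 8.63%.

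Library totals were between 15714973 and 16718673 expected counts. The NK markers were all detected in each library, with a summed level of 15100 to 15300 CPM in SIS3_TGFb, 13700 to 15100 CPM in TGFb and 18300 to 19400 CPM in Ctrl libraries. Most of this sum comes from Gzmb and Prf1, and single markers differed from it. Ncr1 was at 75.8 to 78.4 CPM in SIS3_TGFb, 38.3 to 40.5 CPM in TGFb and 147 to 156 CPM in Ctrl libraries. Tbx21 was at 27.6 to 28 CPM, 22 to 24 CPM and 20.1 to 22.1 CPM in the same groups. Other NK markers, namely Eomes, Klrd1, Il2rb and Nkg7, were lowest in SIS3_TGFb. Eomes was at 361 to 375 CPM in SIS3_TGFb, 515 to 520 CPM in TGFb and 534 to 556 CPM in Ctrl libraries. Klrd1 was at 62.9 to 65.4 CPM, 94.5 to 95.4 CPM and 106 to 121 CPM in the same order. T cell markers summed to 7.39 to 19.9 CPM, mast cell markers to 424 to 491 CPM over all libraries, and the 5 macrophage markers to 698 to 1180 CPM in SIS3_TGFb, 614 to 961 CPM in TGFb and 858 to 1140 CPM in Ctrl libraries. Within the mast cell sum Kit moved in the opposite way to Cpa3 and Mcpt8. Mcpt8 was at 169 to 197 CPM in SIS3_TGFb, 205 to 233 CPM in TGFb and 238 to 257 CPM in Ctrl libraries. Kit was at 238 to 273 CPM in SIS3_TGFb, 225 to 243 CPM in TGFb and 167 to 192 CPM in Ctrl libraries, and Cpa3 at 12.4 to 14.0 CPM in SIS3_TGFb, 14.4 to 21.3 CPM in TGFb and 28.3 to 30.3 CPM in Ctrl libraries. TGFb replicate 3 stood apart, with the lowest macrophage and T cell sums and the lowest levels of the mast cell markers Fcer1a (0 CPM) and Gata2 (0.466 CPM). SIS3_TGFb replicate 3 had the highest macrophage sum, 1180 CPM, against 757 and 698 CPM in SIS3_TGFb replicates 1 and 2. In a bulk sample, fewer cells of a type and less RNA per cell cannot be told apart, and the part of these cell mixtures in the results was not tested.

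Levels of the 40 genes were compared per kb of coding sequence, since a longer transcript yields more reads. Reads from untranslated ends are counted too, so the scale overstates genes with long ends. Npm1, which encodes the abundant nucleolar chaperone nucleophosmin, was highest at 1490 ± 26.0 CPM per kb in SIS3_TGFb, 1550 ± 41.8 in TGFb and 1550 ± 6.59 in Ctrl cells (SD, n = 3 each). Processed copies of Npm1 exist in the genome, so its level is uncertain. Ncl, encoding nucleolin, followed at 304 ± 8.71, 297 ± 7.07 and 320 ± 6.05 CPM per kb in the SIS3_TGFb, TGFb and Ctrl cells. At the low end of the Ctrl order stood the processome scaffold Utp20 at 7.16 ± 0.352 CPM per kb, just below the polymerase I subunits Polr1b at 9.35 ± 0.332 and Polr1e at 9.59 ± 0.898. The spread of Polr1e covered both Polr1b and the next gene, Rrp12 at 9.60 ± 0.486, and neighbours elsewhere in the order were often as close. Within a group, the median coefficient of variation of the 40 genes was 3.26% in SIS3_TGFb, 3.82% in TGFb and 4.29% in Ctrl libraries.

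**Figure D1:**
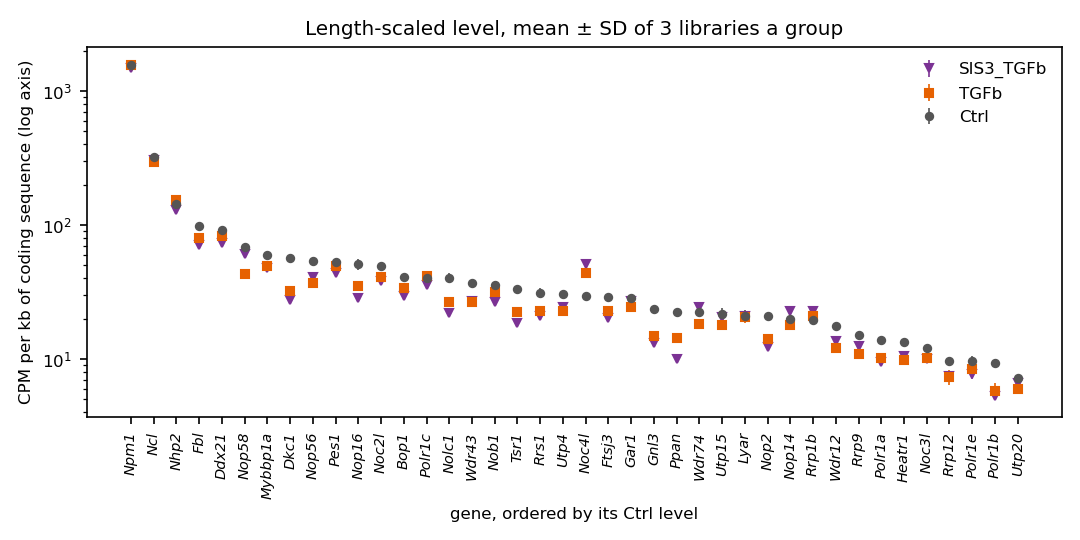
Mean CPM per kb of coding sequence (log axis) of the 40 genes in SIS3_TGFb (triangles), TGFb (squares) and Ctrl cells (circles), with SD bars over 3 libraries, ordered by the Ctrl level. Npm1 lies near 1550 CPM per kb in Ctrl cells and Utp20 at 7.16, and Noc4l is the gene whose treated levels stand most clearly above Ctrl.

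The first question was what TGF-β1 alone did to these genes. Most were lower in TGFb than in Ctrl cells: 32 of 40 fell, 1 rose and 7 did not pass the test (adjusted p below 0.05, edgeR's quasi-likelihood test over all 12212 genes). Over all tested genes 34.3% were called, 16.4% fell and 17.9% rose. Of the called genes 52.2% were higher in TGFb cells, and 41.3% with upper-quartile scaling. The median log2 change was -0.29 over the 40 genes and -0.0036 over all genes. All 3 TGFb libraries lay below all 3 Ctrl libraries for 32 of 40 genes, against 22.1% of all genes, and above them for 1, against 22.9%. Summed over the 40 genes, the level was 3983, 3929 and 3996 CPM in the TGFb libraries and 4531, 4518 and 4436 CPM in the Ctrl libraries, with no overlap. Without TGFb replicate 3, 31 genes fell and 1 rose.

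**Figure D2:**
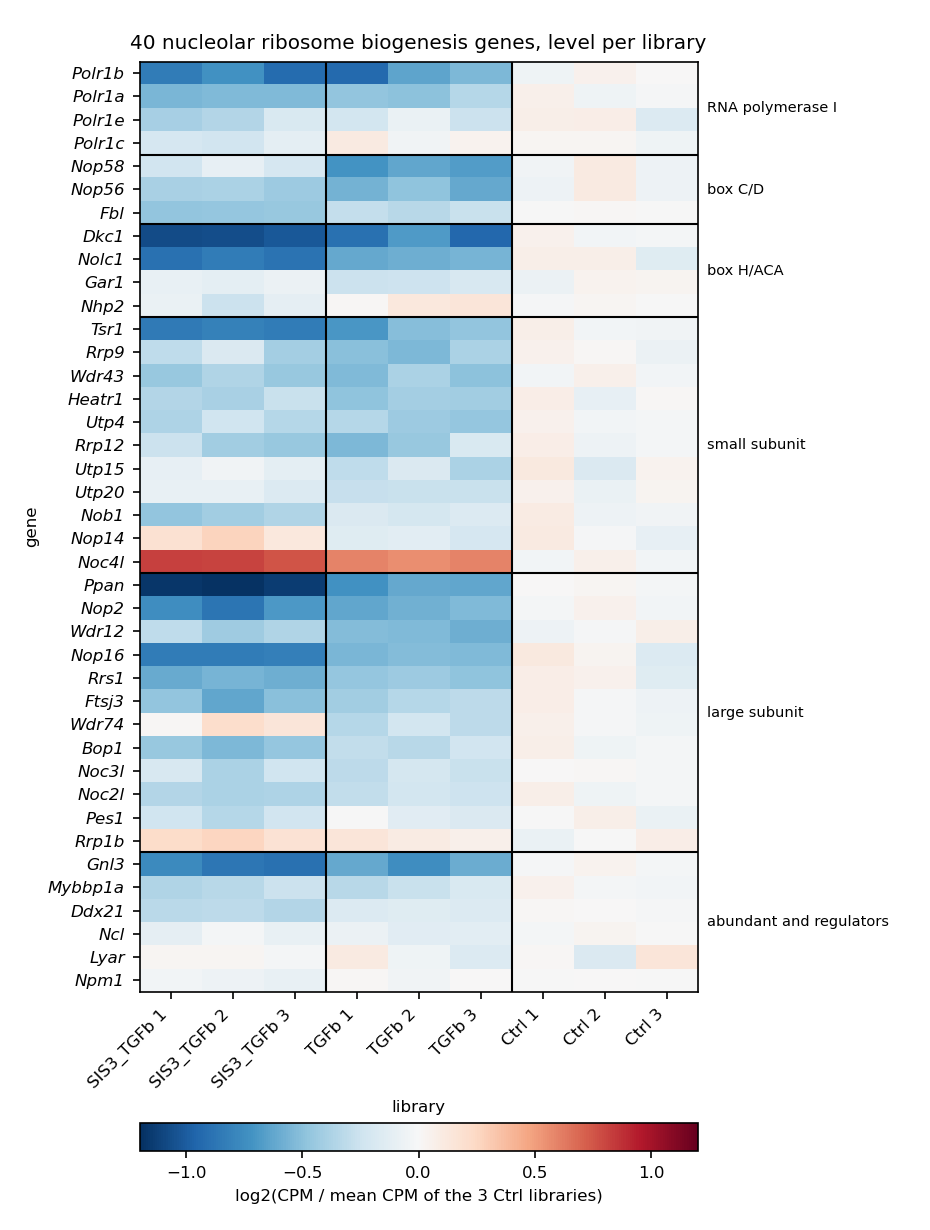
Level of each of the 40 genes in each of the 9 libraries, as log2 of CPM over the mean of the 3 Ctrl libraries, in blocks by role. Blue fills most of the SIS3_TGFb and TGFb columns, Noc4l is red in all 6 treated libraries, and Npm1 and Lyar stay pale.

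RNA polymerase I was represented by 4 subunits, of which 2 fell with TGF-β1 and 2 did not pass. Polr1b, the second largest subunit of the enzyme (chromosome 2, 129100970 to 129128060, GRCm38), was at 16.7, 20.5 and 21.9 CPM in TGFb libraries and at 30.7, 32.9 and 31.9 CPM in Ctrl libraries. The groups did not overlap, although the TGFb libraries spread more widely. Polr1b had a log2 change of -0.69 ± 0.085 (SE; adjusted p = 8.21e-06). Polr1a, the largest subunit, fell by 0.43 on the log2 scale (adjusted p = 3.67e-06). Polr1c, a subunit shared with RNA polymerase III, and Polr1e stood at 0.037 ± 0.055 and -0.19 ± 0.102 and did not pass.

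The box C/D proteins are the methyltransferase fibrillarin (Fbl) and the core proteins Nop56 and Nop58, and all 3 fell. Nop58 (chromosome 1, 59684961 to 59711510) was at 55.7, 59.4 and 57.6 CPM in TGFb libraries, against 88.8, 98.4 and 87.6 CPM in Ctrl libraries. Every TGFb library was well below every Ctrl library, a log2 change of -0.67 ± 0.053 (adjusted p = 5.29e-08). Nop56 changed by -0.55 ± 0.052 and Fbl by -0.29 ± 0.037.

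Of the 4 box H/ACA genes 3 fell. Dkc1 (X chromosome, 75095854 to 75109776) encodes dyskerin, the pseudouridine synthase that is mutated in dyskeratosis congenita and is also part of telomerase. It was at 46.7, 54.4 and 45.1 CPM in TGFb libraries and at 89.9, 85.2 and 85.6 CPM in Ctrl libraries, which do not overlap. Its log2 change of -0.83 ± 0.059 (0.562-fold, adjusted p = 1.43e-08) was the lowest among the 40 genes. Nolc1, a chaperone of these particles in the nucleolus and Cajal bodies, was at 55.3, 56.3 and 57.5 CPM in TGFb libraries and at 88.6, 88.6 and 76.5 CPM in Ctrl libraries, a change of -0.58 ± 0.055. The core protein Gar1 changed by -0.24 ± 0.067 (adjusted p = 0.0103), a call lost by DESeq2 (adjusted p = 0.0784). The core protein Nhp2 at 0.097 ± 0.052 did not pass.

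All 11 small-subunit genes passed the test, 10 falling and 1 rising, while by DESeq2 8 fell and 1 rose. Noc4l (chromosome 5, 110648419 to 110653382), the counterpart of a yeast partner of Nop14 in small-subunit assembly, was the gene that rose. Its level was 68.5, 66.8 and 68.4 CPM in TGFb libraries and 44.2, 47.4 and 44.4 CPM in Ctrl libraries. All TGFb libraries were higher, by 0.58 ± 0.045 on the log2 scale (1.5-fold, adjusted p = 4.12e-08). Tsr1, which acts late in maturation of the small subunit (chromosome 11, 74898080 to 74909340), was at 49.4, 56.3 and 57.8 CPM in TGFb libraries and at 84.1, 78.6 and 77.8 CPM in Ctrl libraries. These did not overlap, and the change was -0.56 ± 0.056 (adjusted p = 8.32e-07). About 32.3% of the exonic length of Tsr1 overlaps Srr on the opposite strand, the protocol names no step that marks strand, and Srr itself was at 11.5 to 17.3 CPM. The processome proteins Rrp9, Wdr43, Heatr1, Utp4, Utp15 and Utp20 and the export factor Rrp12 changed by -0.47 to -0.27. The endonuclease Nob1, which makes the last cut of the small-subunit RNA, changed by -0.18 ± 0.056 (adjusted p = 0.0205), and Nop14 by -0.16 ± 0.058 (adjusted p = 0.0455). The Nob1 call was lost in 3 settings, at an adjusted p of 0.0721 by DESeq2, 0.068 when TGFb replicate 2 was dropped and 0.104 when Ctrl replicate 1 was dropped. Nop14's call was lost in 8 of 16 alternative settings, with an adjusted p of up to 0.21 when Ctrl replicate 1 was left out.

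Of the 12 large-subunit genes 10 fell, and Pes1 and Rrp1b did not pass at -0.10 ± 0.053 and 0.10 ± 0.054. Ppan (chromosome 9, 20888175 to 20892179), an assembly factor of the large subunit, was at 19.1, 20.7 and 20.6 CPM in TGFb libraries and at 31.7, 32.2 and 31.1 CPM in Ctrl libraries. The groups were far apart compared with their spread, with a log2 change of -0.65 ± 0.060 (adjusted p = 3.15e-07). Nop2, a methyltransferase of the large ribosomal RNA, changed by -0.58 ± 0.057, Wdr12 by -0.54 ± 0.070 and Nop16 by -0.53 ± 0.073. Wdr12 forms a complex with Bop1 and Pes1, and Bop1 changed by -0.29 ± 0.045. The Noc2l transcript overlaps Samd11 on the opposite strand over 20.9% of its exonic length, and Samd11 was at 0.0651 to 1.07 CPM.

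Among the 6 abundant nucleolar proteins and regulators, 4 fell and 2 did not pass. Gnl3 (chromosome 14, 31012433 to 31019131) encodes nucleostemin, a GTPase known from stem and dividing cells. It was at 24.6, 22.5 and 24.9 CPM in TGFb libraries and at 37.3, 38.8 and 37.1 CPM in Ctrl libraries, with no overlap and a change of -0.65 ± 0.061 (adjusted p = 3.89e-07). The falls of the more abundant genes were smaller. The nucleolar protein Mybbp1a changed by -0.26 ± 0.043, the RNA helicase Ddx21 by -0.15 ± 0.032 and nucleolin (Ncl) by -0.11 ± 0.035 (adjusted p = 0.0244). The Ncl call was lost without Ctrl replicate 2 (adjusted p = 0.0869) and without TGFb replicate 2 (0.0964). Npm1 was at 1380, 1320 and 1370 CPM in TGFb libraries and at 1360, 1370 and 1360 CPM in Ctrl libraries. In the main fit Npm1 and Lyar did not pass in any of the 3 comparisons. Npm1 did pass as lower in SIS3_TGFb versus Ctrl by DESeq2 (adjusted p = 0.0429) and with upper-quartile factors (adjusted p = 0.0388).

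Box C/D and H/ACA guide RNAs are themselves cut from introns of host genes, and the annotation (GENCODE vM21) places small nucleolar RNA genes within 8 of the 40 genes (20%), against 2.01% of 11952 tested genes. The 8 are Dkc1, Gnl3, Ncl, Nop56, Nop58, Ppan, Tsr1 and Wdr43. All 8 fell with TGF-β1, with changes from -0.83 to -0.11 and a median of -0.60, beside a median of -0.28 over the other 32, of which 24 fell. The guide RNAs were not measured, since libraries were made from polyadenylated RNA.

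With SIS3 before TGF-β1 some of the 40 genes rose and others fell, as was so over all tested genes. Compared with TGFb, 7 rose in SIS3_TGFb cells (17.5%), 16 fell (40%) and 17 did not pass, with a median log2 change of -0.080. Over all genes 21.2% rose and 20.6% fell, with a median of 0.012. The share of rises was thus no higher than over all genes, and the share of falls was higher. All 3 SIS3_TGFb libraries lay above all TGFb libraries for 11 genes and below for 18, against 26.6% and 24.8% of all genes. This split depends on scaling: the scaling factors were 1.026 to 1.046 in SIS3_TGFb and 0.9562 to 0.9855 in TGFb libraries, and without them 14 genes rose, 8 fell and the median was 0.0038, while 71.1% of all called genes were higher compared with 50.6% otherwise. By DESeq2, 4 rose and 14 fell. Without TGFb replicate 3, 6 rose and 12 fell with a median of -0.048, and 4 genes rose without SIS3_TGFb replicate 1 or without SIS3_TGFb replicate 2. The TGFb libraries serve in both this comparison and the one with Ctrl, so changes in the one are not independent of those in the other.

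**Figure D3:**
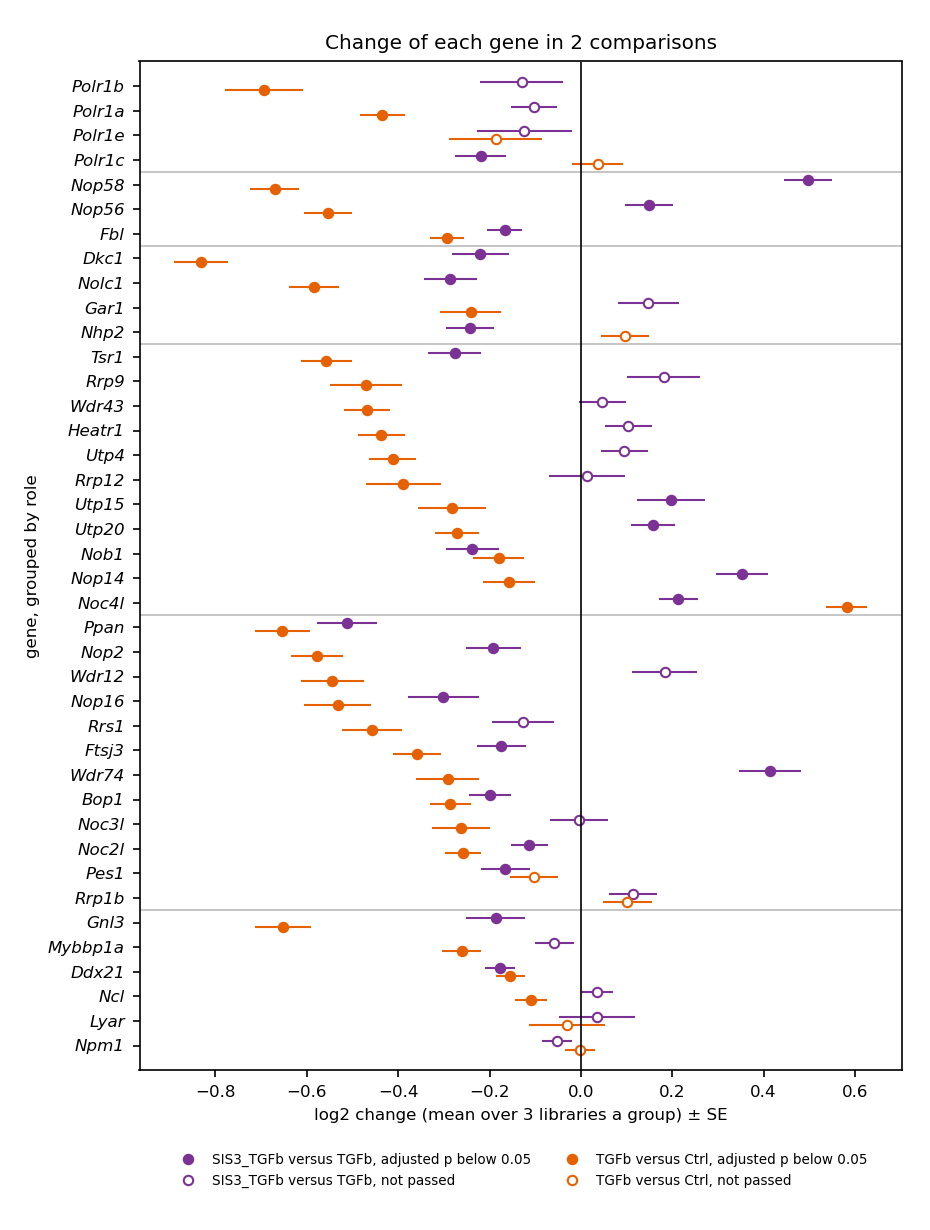
Log2 change ± SE of each of the 40 genes in SIS3_TGFb versus TGFb (purple) and TGFb versus Ctrl (orange), filled where the adjusted p was below 0.05, in blocks by role. Orange points lie left of 0 for all but Noc4l among the filled ones, and filled purple points lie on both sides, from Ppan at -0.51 to Nop58 at 0.50.

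Among the genes that rose with SIS3, Nop58 changed most. It was at 78.3, 85.7 and 79.8 CPM in SIS3_TGFb libraries and at 55.7, 59.4 and 57.6 CPM in TGFb libraries. All SIS3_TGFb libraries were above all TGFb libraries, by 0.50 ± 0.053 on the log2 scale (1.41-fold, adjusted p = 2.5e-06). Its partner Nop56 changed by 0.15 ± 0.053 (adjusted p = 0.0345), a call lost in 5 of 16 settings. Fibrillarin (chromosome 7, 28168893 to 28179269), the enzyme of the same particle, went the other way. Fbl was at 69.1, 69.6 and 70.0 CPM in SIS3_TGFb libraries and at 78.7, 76.0 and 79.7 CPM in TGFb libraries, a change of -0.17 ± 0.038 (adjusted p = 0.0024). Those libraries did not overlap, but the Fbl call was lost without scaling factors (adjusted p = 0.0889).

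The small-subunit genes included 4 of the 7 rises and 2 falls. In this group 2 genes rose by DESeq2, without SIS3_TGFb replicate 1 and without SIS3_TGFb replicate 2, and 7 rose without scaling factors. Nop14 (chromosome 5, 34638536 to 34660148), a small-subunit processome protein, was at 58.7, 62.2 and 56.5 CPM in SIS3_TGFb libraries and at 46.8, 47.2 and 44.8 CPM in TGFb libraries. Every SIS3_TGFb library was higher, by 0.35 ± 0.057 (adjusted p = 0.000138). Noc4l, at 80.1, 79.6 and 76.4 CPM in SIS3_TGFb libraries, rose by 0.21 ± 0.043 on the log2 scale (adjusted p = 0.000865). Utp20 changed by 0.16 ± 0.048 (adjusted p = 0.0158), which was lost in those same 3 settings with fewer rises (adjusted p of 0.0562 to 0.1), and Utp15 by 0.20 ± 0.075 (adjusted p = 0.0462), which was lost in 9 settings. Tsr1 was at 44.6, 45.6 and 44.7 CPM in SIS3_TGFb libraries, below all TGFb libraries, with a change of -0.28 ± 0.058 (adjusted p = 0.00137). Nob1 changed by -0.24 ± 0.058.

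Of the 12 large-subunit genes 7 fell and 1 rose. Only 3 fell without SIS3_TGFb replicate 2 and 4 without TGFb replicate 3, and without scaling factors 3 rose and 3 fell. Ppan was at 14.1, 13.9 and 14.4 CPM in SIS3_TGFb libraries and at 19.1, 20.7 and 20.6 CPM in TGFb libraries, which do not overlap. Its change of -0.51 ± 0.066 (0.701-fold, adjusted p = 1.7e-05) was the lowest of the 40. Wdr74 (chromosome 19, 8735795 to 8740624), an assembly factor of the large subunit, was at 26.0, 29.8 and 28.5 CPM in SIS3_TGFb libraries and at 20.3, 22.1 and 20.8 CPM in TGFb libraries. It rose by 0.41 ± 0.068 on the log2 scale (adjusted p = 0.000166), with no overlap. Nop16, Bop1, Nop2, Ftsj3, Pes1 and Noc2l fell by 0.30 to 0.11 on the log2 scale. The Nop2, Ftsj3 and Pes1 calls were each lost in 3 settings (adjusted p of 0.0525 to 0.255), and the Noc2l call was lost in 8 settings, the block on replicate number among them (adjusted p = 0.0543).

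In the remaining groups the called genes fell, although Gar1 and Ncl rose without scaling factors. Polr1c (chromosome 17, 46243920 to 46248045) was at 36.4, 35.7 and 38.7 CPM in SIS3_TGFb libraries and at 45.2, 40.7 and 43.1 CPM in TGFb libraries, a change of -0.22 ± 0.056 (adjusted p = 0.00528, and 0.07 without scaling factors). Nolc1 (chromosome 19, 46075847 to 46085543) was at 45.4, 47.4 and 45.9 CPM in SIS3_TGFb libraries, below all TGFb libraries, with a change of -0.29 ± 0.058 (adjusted p = 0.000962). Dkc1 changed by -0.22 ± 0.063, Nhp2 by -0.24 ± 0.053 and Ddx21 by -0.18 ± 0.032. The Dkc1 call was lost without scaling factors (adjusted p = 0.114) and without TGFb replicate 2 (0.0613). Gnl3 was at 22.2, 20.7 and 20.3 CPM in SIS3_TGFb libraries, all below the TGFb libraries, with a change of -0.19 ± 0.065 (adjusted p = 0.0304) that was lost in 6 settings. Of the 8 genes that host small nucleolar RNAs, 2 rose and 4 fell, with a median log2 change of -0.076. Of the other 32 genes 5 rose and 12 fell, with a similar median of -0.080.

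**Figure D4:**
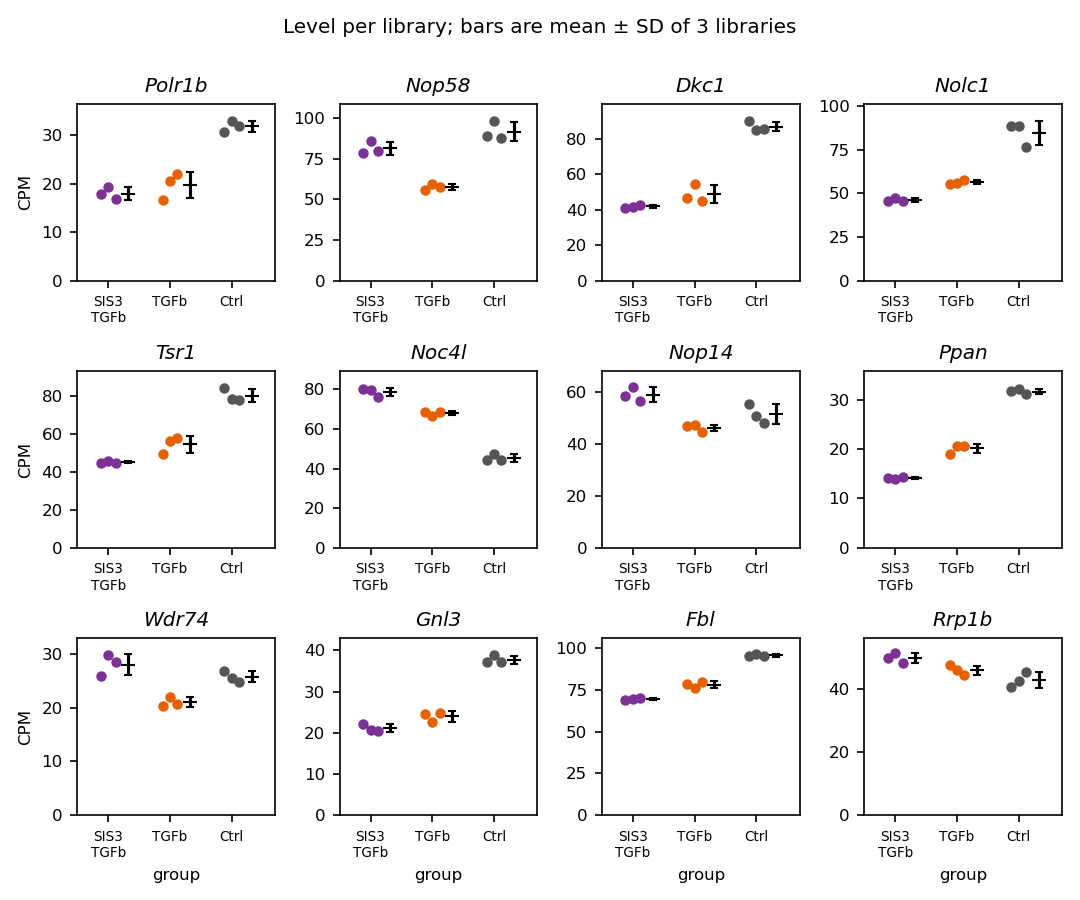
CPM in each library (points), with mean ± SD of 3 libraries, for 12 of the genes in SIS3_TGFb (purple), TGFb (orange) and Ctrl (grey) cells; each axis starts at 0. Ppan and Tsr1 are lowest in SIS3_TGFb and highest in Ctrl cells, Noc4l is the reverse, and Nop58, Nop14 and Wdr74 are lowest in TGFb cells.

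Set against Ctrl, cells given SIS3 and TGF-β1 still had lower levels of most of these genes. In this comparison 30 of 40 fell, 3 rose and 7 did not pass, with a median log2 change of -0.33, against 24.9% fallen, 29% risen and a median of 0.020 over all genes. Libraries did not overlap for 33 genes on the low side and for 3 on the high side, against 28.4% and 32.6% of all genes. The level summed over the 40 genes was 3883, 3908 and 3850 CPM in SIS3_TGFb libraries and 4531, 4518 and 4436 CPM in Ctrl libraries. Without scaling factors 26 genes fell and 4 rose, and 63.8% of all called genes were higher, compared with 53.8% otherwise. By DESeq2 32 fell and 3 rose, and with upper-quartile factors 33 fell and 3 rose. Among the genes that did not pass, Ncl fell in 4 alternative settings and Utp20 in 5. This comparison uses the libraries of the other comparisons again.

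Ppan, at 14.1, 13.9 and 14.4 CPM in SIS3_TGFb libraries and at 31.7, 32.2 and 31.1 CPM in Ctrl libraries, had the lowest log2 change, -1.17 ± 0.062 (0.446-fold, adjusted p = 2.81e-10). Dkc1 was at 41.2, 41.5 and 42.9 CPM in SIS3_TGFb libraries and at 89.9, 85.2 and 85.6 CPM in Ctrl libraries, -1.05 ± 0.059 on the log2 scale. For both genes the groups were far apart. Tsr1 changed by -0.83 ± 0.056, Gnl3 by -0.84 ± 0.061 and Nolc1 by -0.87 ± 0.056. All 4 polymerase I subunits fell, but only 2 did without SIS3_TGFb replicate 2 or without scaling factors. Polr1c was lost in both (adjusted p = 0.0507 and 0.0879). Polr1b was at 17.8, 19.3 and 16.8 CPM in SIS3_TGFb libraries and changed by -0.82 ± 0.085 relative to Ctrl (adjusted p = 6.9e-07), while Polr1e changed by -0.31 ± 0.102 (adjusted p = 0.0181), a call lost in 5 settings. In the box C/D group Fbl, at 95.2, 96.6 and 95.3 CPM in Ctrl libraries, had the largest change, -0.46 ± 0.037. Nop58, by contrast, changed by -0.17 ± 0.051 (adjusted p = 0.00918), which was lost without scaling factors (adjusted p = 0.0745) and without Ctrl replicate 2 (0.0593).

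The genes that rose were Noc4l, Nop14 and Rrp1b. Noc4l stood 0.80 ± 0.044 above Ctrl on the log2 scale (1.74-fold, adjusted p = 4.3e-10), with no overlap. Rrp1b (chromosome 17, 32036162 to 32062865), a nucleolar protein of the large-subunit pathway, was at 49.7, 51.1 and 48.0 CPM in SIS3_TGFb libraries, 47.3, 45.7 and 44.4 CPM in TGFb libraries and 40.4, 42.4 and 45.2 CPM in Ctrl libraries. The SIS3_TGFb libraries lay above the Ctrl libraries, by 0.22 ± 0.053 (adjusted p = 0.00273), and the TGFb libraries overlapped them. Nop14, at 55.6, 51.0 and 48.3 CPM in Ctrl libraries, changed by 0.20 ± 0.056 (adjusted p = 0.00759).

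Another 128 ribosome biogenesis genes, a list that shares no gene with the 40, had medians nearer 0. Both lists were chosen with earlier results of these data known, which limits what the contrast between them can show. With TGF-β1 alone 54 of the 128 fell (42.2%, against 16.4% of all genes), 13 rose (10.2%, against 17.9%) and 61 did not pass (median log2 change -0.11). There 8 rose without Ctrl replicate 3 and by DESeq2, and 6 rose with upper-quartile factors. Between SIS3_TGFb and TGFb 28 fell (21.9%, near the 20.6% of all genes), 16 rose (12.5%, against 21.2%) and 84 did not pass. The median was -0.0061, which turns to 0.078 without scaling factors, where 32 rose and 16 fell, while 8 rose by DESeq2. Between SIS3_TGFb and Ctrl 67 fell (52.3%, against 24.9% of all genes), 21 rose (16.4%, against 29%) and 40 did not pass (median -0.15). With TGF-β1 the fallen genes included Nifk at -0.56 ± 0.055, which binds the proliferation antigen Ki-67, the processome subunits Pwp2 at -0.64 ± 0.071 and Wdr75 at -0.47 ± 0.055 and the large-subunit factor Rpf2 at -0.53 ± 0.064, and the risen ones the dyskerin chaperone Shq1 at 0.81 ± 0.114 and Zfp622 at 0.35 ± 0.045. Shq1 was at 11.3, 10.4 and 9.05 CPM in TGFb libraries and at 6.06, 5.55 and 5.90 CPM in Ctrl libraries, whereas its client Dkc1 was lower in TGFb.

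Between SIS3_TGFb and TGFb, the polynucleotide kinase Nol9 changed by -0.58 ± 0.052, the H/ACA core gene Nop10 by -0.40 ± 0.047 and Polr1d, a subunit shared by RNA polymerases I and III, by -0.38 ± 0.039. In the same comparison the kinase Riok3 changed by 0.43 ± 0.037, Taf1b, a subunit of the polymerase I promoter factor, by 0.46 ± 0.061, and Ngdn by 0.43 ± 0.063. Nop10 was at 65.7, 62.9 and 67.4 CPM in SIS3_TGFb libraries and at 84.5, 85.2 and 89.3 CPM in TGFb libraries, with no overlap. Between SIS3_TGFb and Ctrl the named genes were Nol9 at -0.67 ± 0.051, Nifk at -0.69 ± 0.056 and Nop10 at -0.57 ± 0.046 on the low side, and Riok3 at 0.57 ± 0.038, Shq1 at 1.05 ± 0.111 and Taf1b at 0.52 ± 0.061 on the high side.

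The 78 genes of the cytosolic ribosomal proteins, the parts that the nucleolar machinery assembles, were counted in the same way. With TGF-β1 25 of 78 rose (32.1%, against 17.9% of all genes) and 53 did not pass. The median was 0.098, and 10 rose with upper-quartile scaling. The count of rises was 12 without Ctrl replicate 3, 15 without TGFb replicate 3, where the median was 0.055, and 38 without Ctrl replicate 2. Between SIS3_TGFb and TGFb 32 fell (41%, against 20.6% of all genes) and 46 did not pass. The median was -0.11, and without scaling factors 4 fell. There 17 fell without TGFb replicate 3, 19 and 20 without SIS3_TGFb replicates 1 and 2, and 51 by DESeq2. Between SIS3_TGFb and Ctrl 2 rose (2.56%), 4 fell (5.13%) and 72 did not pass, against 29% risen and 24.9% fallen over all genes. The median of -0.0030 turned to 0.058 without scaling factors, where 19 rose and 1 fell. Without Ctrl replicate 2, 6 rose and 2 fell, without Ctrl replicate 3 none rose and 6 fell, and without SIS3_TGFb replicate 2 none rose and 2 fell. In a list of 26 replication and mitosis genes 22 fell with TGF-β1 (84.6%, against 16.4% of all genes, median -0.33). Between SIS3_TGFb and TGFb 13 of the 26 rose (50%, against 21.2%) and 4 fell (15.4%, against 20.6%), with a median of 0.22. There 9 rose and 4 fell without SIS3_TGFb replicate 3, with a median of 0.16, and 16 rose and 2 fell without scaling factors. Between SIS3_TGFb and Ctrl 12 of the 26 fell (46.2%, against 24.9%) and 2 rose (7.69%, against 29%), with a median of -0.18.

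**Figure D5:**
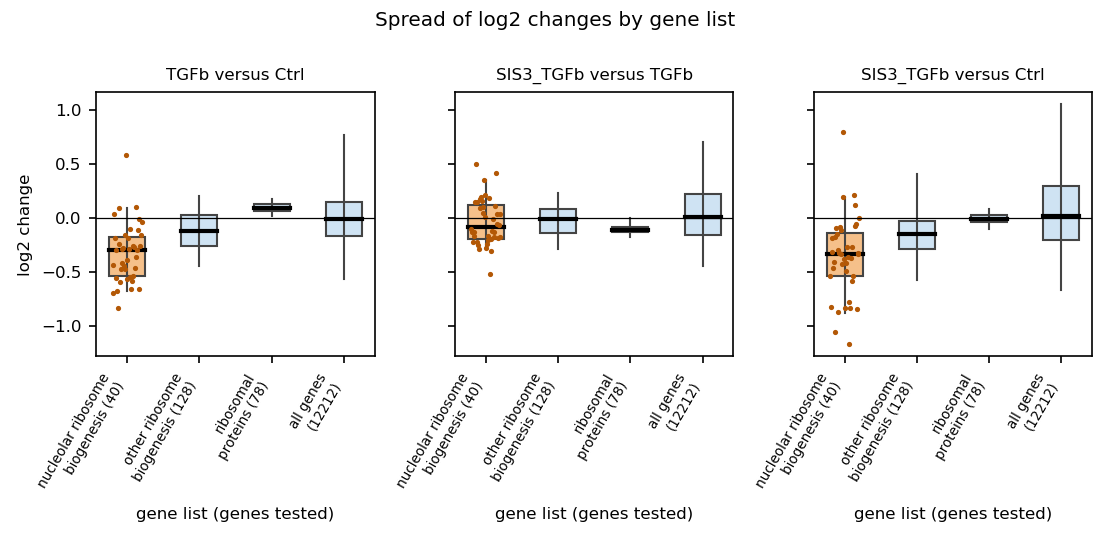
Log2 changes in each comparison for the 40 genes (points over the box), 128 other ribosome biogenesis genes, 78 ribosomal protein genes and all 12212 tested genes. Boxes span the quartiles with the median as a bar and lines reach the 5th and 95th percentiles; with TGF-β1 alone the medians are -0.29, -0.11, 0.098 and -0.0036.

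Regulators of the pathway were read by name. Myc (chromosome 15, 61985341 to 61990361) was at 8.56, 9.94 and 10.2 CPM in SIS3_TGFb libraries, 29.0, 30.3 and 31.8 CPM in TGFb libraries and 60.2, 59.0 and 58.8 CPM in Ctrl libraries. The groups form separate steps, lowest with SIS3 and TGF-β1. Myc changed by -0.97 ± 0.058 in TGFb versus Ctrl, -1.67 ± 0.072 in SIS3_TGFb versus TGFb and -2.63 ± 0.067 in SIS3_TGFb versus Ctrl. Mycn was at 2.78, 2.67 and 2.90 CPM in SIS3_TGFb libraries, 4.99, 6.83 and 5.26 CPM in TGFb libraries and 13.7, 16.3 and 14.9 CPM in Ctrl libraries, and fell in all 3 comparisons as well.

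Ubtf, the architectural factor of ribosomal RNA genes, was at 119, 121 and 117 CPM in SIS3_TGFb libraries, 106, 107 and 109 CPM in TGFb libraries and 107, 106 and 105 CPM in Ctrl libraries. It was higher in SIS3_TGFb than in TGFb by 0.15 ± 0.034 (adjusted p = 0.00269) and at 0.016 ± 0.035 did not pass in TGFb versus Ctrl. Rrn3, which recruits polymerase I to its promoter, was at 63.9, 67.1 and 65.4 CPM in SIS3_TGFb libraries, 58.7, 66.3 and 61.0 CPM in TGFb libraries and 79.0, 74.1 and 70.7 CPM in Ctrl libraries. Rrn3 changed by -0.27 ± 0.053 in TGFb versus Ctrl (adjusted p = 0.000976) and by 0.077 ± 0.054 in SIS3_TGFb versus TGFb, which did not pass.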

How the data were processed

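Poly-A RNA of 9 libraries in 3 groups of 3 was read as 100 bp pairs, per the labels' protocols. The authors deposited 1 table of expected counts per gene, not scaled for depth; in any library 10.2% to 11.1% of entries are fractional. Per the submitters' processing notes the tools were RSEM, Bowtie2, HISAT2, StringTie, Cufflinks and DESeq2, with mm10 and GRCm38 as builds; their versions, roles and gene models: not given in the sources used here. Multi-copy genes could be split by such estimates.

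Expected counts were rounded. Genes were kept by filterByExpr of edgeR 4.0.16 (minimum count 10, minimum total 15; R 4.3.3), scaled with TMM factors and fitted over all 9 libraries with 1 mean per group (glmQLFit, glmQLFTest). P-values are two-sided and Benjamini-Hochberg adjusted over 12212 genes, and a gene rose or fell where that value was below 0.05, whatever its fold. The SE is the absolute log2 change over the square root of F. CPM are unrounded expected counts over the TMM-scaled totals. The common biological coefficient of variation was 4.53%, and the smallest count of any of the 40 genes was 156. The test was tried on simulated data first.

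The 40 genes, the role groups and the other lists were chosen with earlier results of these data known. Genes given in full are, per role group and comparison, the called gene with the largest change and the largest the other way; per comparison, 4 further pathway genes with the smallest p and up to 2 the other way; and Myc, Mycn, Ubtf and Rrn3. Coding lengths are the longest principal isoform of GENCODE vM21. Promoters were searched as letters on both strands. Alternatives were RLE, upper-quartile or no scaling factors, DESeq2 1.42.0, no filter, only the groups compared, a block on replicate number, and leaving out each library. Marker lists of some other cell types are not reported here.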

Additional observations from a re-analysis of the deposited data

How the results depend on the processing

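Of the calls among the 40 genes, 29 of 33 in TGFb versus Ctrl, 12 of 23 in SIS3_TGFb versus TGFb and 29 of 33 in SIS3_TGFb versus Ctrl kept their direction and passed under all 16 alternatives. In SIS3_TGFb versus TGFb, leaving out the scaling factors gave 14 rising and 8 falling of the 40, a median of 0.0038 and 1501 falling over all genes, and DESeq2 gave 4 rising; the cause was not tested. Leaving out 1 library at a time gave 4 to 7 rising and 11 to 16 falling there, 29 to 32 falling and 1 rising in TGFb versus Ctrl, and 27 to 31 falling and 3 rising in SIS3_TGFb versus Ctrl. Over all genes upper-quartile factors gave 1807 rising and 2568 falling in TGFb versus Ctrl. No pairing by replicate number was seen in deviations from the group means: same-numbered libraries correlated at -0.229 to 0.168 (9 pairs) and others at -0.244 to 0.248 (18 pairs). With 3 libraries a group this check cannot exclude a weak pairing. With a replicate block, 32 of the 40 fell and 1 rose, 15 fell and 6 rose, and 30 fell and 3 rose in the comparisons as ordered above. Precision was lower for genes with fewer counts: in TGFb versus Ctrl the SE was 0.102 for Polr1e and 0.0334 for Npm1.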

Other observations

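Role groups differed in how their summed level stood in SIS3_TGFb cells. The box C/D genes summed to 222 ± 4.62 CPM in SIS3_TGFb, 200 ± 2.08 CPM in TGFb and 281 ± 13 CPM in Ctrl cells (SD, n = 3 each), and the small-subunit genes to 523 ± 9.07, 493 ± 8.66 and 597 ± 20.4 CPM in the same groups. The polymerase I genes summed to 114 ± 2 CPM in SIS3_TGFb, 126 ± 4.36 CPM in TGFb and 157 ± 3.51 CPM in Ctrl cells. The box H/ACA genes summed to 166 ± 3.79 CPM in SIS3_TGFb, 192 ± 7.02 CPM in TGFb and 257 ± 8.14 CPM in Ctrl cells, and the large-subunit genes to 478 ± 9.87, 514 ± 2 and 630 ± 15 CPM. The abundant nucleolar genes summed to 2377 ± 25.2 CPM in SIS3_TGFb, 2443 ± 47.3 CPM in TGFb and 2573 ± 15.3 CPM in Ctrl cells. The SIS3_TGFb libraries lay above the TGFb libraries for the box C/D and small-subunit genes and below them for the polymerase I, box H/ACA and large-subunit genes, while those of the abundant nucleolar genes overlapped. The direction between SIS3_TGFb and TGFb depends on scaling: as a share of unscaled library totals the 40 genes made up 0.401% ± 0.00231 in SIS3_TGFb, 0.387% ± 0.005 in TGFb and 0.445% ± 0.00115 in Ctrl libraries, whereas their summed CPM was lower in SIS3_TGFb than in TGFb. These sums are descriptions with no test, and the most abundant genes weigh most in them.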
